A study of Mus musculus with 32 samples.

Results

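This report describes 5 genes of the red blood cell in cloned mice: Hba-a1, Alas2, Rhd, Car2 and Prdx2. They were chosen by symbol, on 12 of the 20794 rows of the array table, which carries 9026 named genes in all. Hba-a1 was represented by 6 rows, Car2 by 3 rows and each of the other genes by 1 row. Their choice rested on the values in these same samples: Hba-a1 was picked for its values in liver and spleen, and the other 4 genes for their spleen values. Those values are therefore given as a description without a test, and a test is given only for Alas2, Rhd, Car2 and Prdx2 in liver.

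Red cells carry oxygen on haemoglobin, a tetramer of alpha and beta globin chains that each hold a haem group. Developing red cells make haem in a pathway that opens with the erythroid form of aminolevulinate synthase, and they keep little beyond haemoglobin, a membrane with blood group proteins and a set of soluble enzymes. In the adult mouse the spleen filters aged red cells and, unlike the human organ, also makes new ones in its red pulp, whereas the adult liver makes hardly any and contains the blood that flows through it.

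The animals were male 129/SvJ mice aged 18 to 19 weeks. One cohort of clones, made by nuclear transfer, was labelled Dll1, with no zygosity stated, and was compared with a pool of RNA from conventionally bred Dll1 heterozygotes; Dll1 encodes a ligand of the Notch receptors. The other cohort was of wildtype clones, compared with a pool of RNA from conventionally bred wildtype mice. Each cohort had 4 clones, and liver and spleen of each were hybridised on 2 arrays with the dyes exchanged, which gave 8 arrays in each of 4 groups and 32 arrays in all. Whether clones of a cohort shared a donor cell line was not given in the sources used here. For each pool the labels name 4 animals, while the labelling protocol speaks of 6. The mice of a cohort are numbered here from 1 to 4, with the same number for liver and spleen of 1 animal.

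Every value below is a log2 ratio, in which 0 means the same signal as in the pool and a value below 0 a lower one; the direction, clone over pool, was read from the word order of the array titles and is likely rather than stated. A mouse's value is the mean of its 2 arrays. A ratio has no absolute level, so levels of different genes were not set against each other, and the identity of the organs could not be checked from levels of marker genes. In these whole organs, fewer cells of a type and less RNA per cell cannot be told apart.

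The starts of 4 of the genes are shown because they carry, or lack, the motifs bound by the 2 main factor families of red cell genes. Each line gives the 250 bases before the RefSeq transcription start, read 5′ to 3′ on the strand of the gene, which is the plus strand for all 4, with motif matches in capitals. Hba-a1 lies on build GRCm38.p6 at chr11:32283422-32283671, Alas2 at chrX:150547167-150547416, Rhd at chr4:134864286-134864535 and Prdx2 at chr8:84969372-84969621.
Hba-a1: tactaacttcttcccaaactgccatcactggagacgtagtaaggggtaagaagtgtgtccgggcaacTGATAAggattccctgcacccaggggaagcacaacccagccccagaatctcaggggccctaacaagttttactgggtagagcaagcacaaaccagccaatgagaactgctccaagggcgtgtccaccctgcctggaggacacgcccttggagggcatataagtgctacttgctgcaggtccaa
Alas2: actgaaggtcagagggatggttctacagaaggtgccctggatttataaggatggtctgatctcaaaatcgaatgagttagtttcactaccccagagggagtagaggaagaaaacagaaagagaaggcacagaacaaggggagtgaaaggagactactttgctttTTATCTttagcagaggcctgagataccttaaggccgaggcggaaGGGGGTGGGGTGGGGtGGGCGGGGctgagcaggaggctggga
Rhd: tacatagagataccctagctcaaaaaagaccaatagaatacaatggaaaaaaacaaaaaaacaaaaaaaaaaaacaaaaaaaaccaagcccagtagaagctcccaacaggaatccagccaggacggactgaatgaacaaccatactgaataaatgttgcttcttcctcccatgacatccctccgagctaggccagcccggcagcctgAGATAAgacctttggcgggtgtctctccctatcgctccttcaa
Prdx2: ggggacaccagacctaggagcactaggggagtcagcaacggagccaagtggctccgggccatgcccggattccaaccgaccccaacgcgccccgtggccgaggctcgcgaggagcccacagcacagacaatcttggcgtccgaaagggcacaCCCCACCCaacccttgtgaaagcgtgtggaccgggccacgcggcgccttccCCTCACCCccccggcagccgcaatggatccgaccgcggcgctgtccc
The GATA motif was searched on both strands as AGATAA or TGATAA, or either of these with G as its last base, and the CACC motif of Krüppel-like factors as CCNCNCCC. Hba-a1 held 1 GATA match, TGATAA, 183 to 178 bases before the start, and no CACC match. Alas2 held 1 GATA match on the other strand, 86 to 81 bases before the start, and 4 CACC matches, of which the first 3 overlap, between 42 and 19 bases before it. Rhd held 1 GATA match, 43 to 38 bases before the start, and Prdx2 held 2 CACC matches and no GATA match. Of 32851 RefSeq promoter windows of the same length, 26.5% held a GATA match, 45.9% a CACC match and 8.19% both. A match describes letters and not a bound site, and a window without one says nothing about the factor.

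Hba-a1 encodes the alpha chain of adult haemoglobin. In the spleens of the Dll1 clones its log2 ratio was -0.66 in mouse 1, -2.22 in mouse 2, -1.13 in mouse 3 and -0.23 in mouse 4, a mean of -1.06 ± 0.86 (SD, n = 4 mice). All 4 lay below the pool, as 7.61% of features did there, but the clones differed widely among themselves: mouse 2 was at 21.4% of the pool and mouse 4 at 85.1%. In the wildtype spleens the values were -0.03, -0.31, -0.44 and -0.71 in mice 1 to 4, a mean of -0.37 ± 0.28 (SD, n = 4 mice). All 4 lay below 0 there too, as did 7.03% of features. Mouse 1 was level with its pool and mouse 4 was the lowest, at 61.3% of the pool. The cohorts overlapped, since the highest Dll1 value lay above 3 of the 4 wildtype values.

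In liver, Hba-a1 lay below the pool in every mouse, with a smaller spread. The Dll1 livers were at -0.14, -0.29, -0.59 and -0.29, a mean of -0.33 ± 0.19 (SD, n = 4 mice), and the wildtype livers at -0.53, -0.41, -0.75 and -0.56, a mean of -0.56 ± 0.14 (SD, n = 4 mice). All 4 mice lay below 0 for 9.92% of features in Dll1 liver and for 8.99% in wildtype liver. Both cohorts had their lowest value in mouse 3, and they overlapped. The order of the group means, from the lowest, was Dll1 spleen, wildtype liver, wildtype spleen and Dll1 liver, and each group overlapped the next in that order. Spleen was lower than liver of the same animal in 3 of 4 Dll1 clones and in 1 of 4 wildtype clones.

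**Figure D1:**
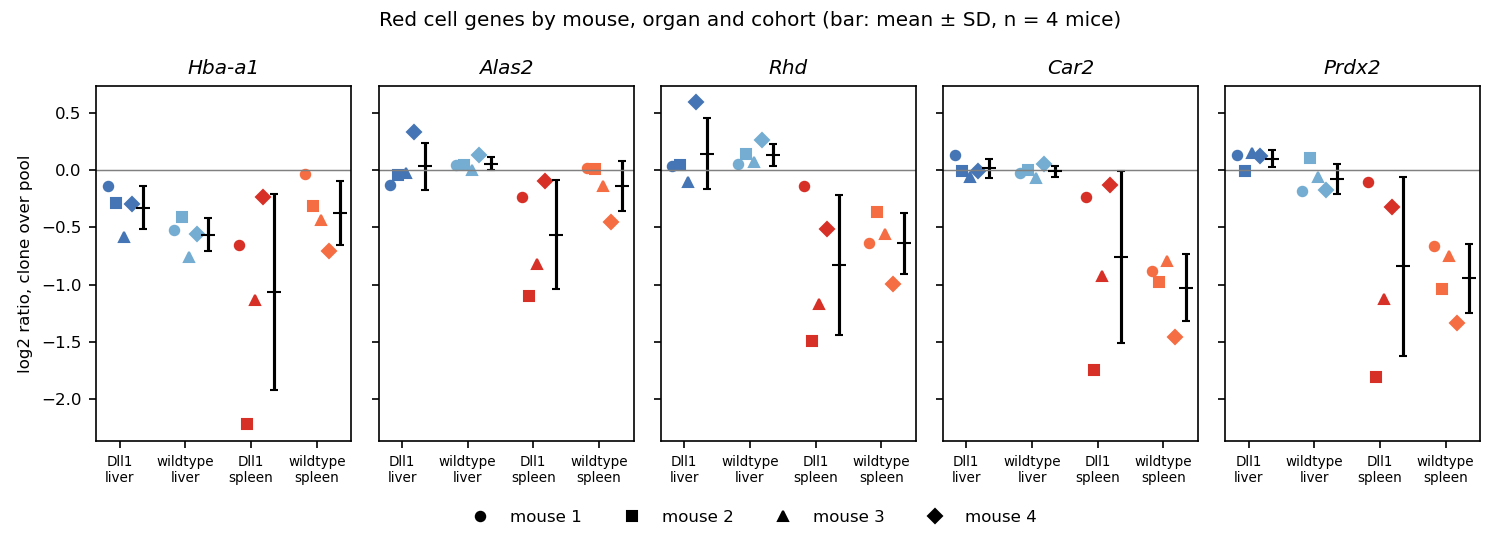
Log2 ratio of clone over pool (vertical axis) for the 5 genes in the 4 groups; each symbol is 1 mouse and the bars are mean ± SD over 4 mice. Dll1 spleens spread from -0.23 to -2.22 for Hba-a1, and Rhd, Car2 and Prdx2 lie below 0 in every spleen while the liver values of Alas2, Rhd, Car2 and Prdx2 scatter around 0.

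The 6 Hba-a1 rows gave nearly the same value in spleen and a wider range in liver. Over the Dll1 spleens their means ran from -1.10 to -1.003, and over the wildtype spleens from -0.46 to -0.33. Over the Dll1 livers they ran from -0.45 to -0.21 and over the wildtype livers from -0.85 to -0.22. Within a single mouse the rows lay up to 0.40 apart in Dll1 spleen, 0.28 in wildtype spleen, 0.61 in Dll1 liver and 0.90 in wildtype liver. All 6 rows had a mean below 0 in each of the 4 groups, with the dyes averaged. The rows belong to 1 gene and are no replicates of a condition. Whether the rows can separate Hba-a1 from Hba-a2, the second adult alpha globin gene, was not tested. The 300-base RefSeq windows around both starts share an identical run of 297 bases. These windows include bases before the start, which a transcript lacks, so the run does not decide what the rows can separate.

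**Figure D2:**
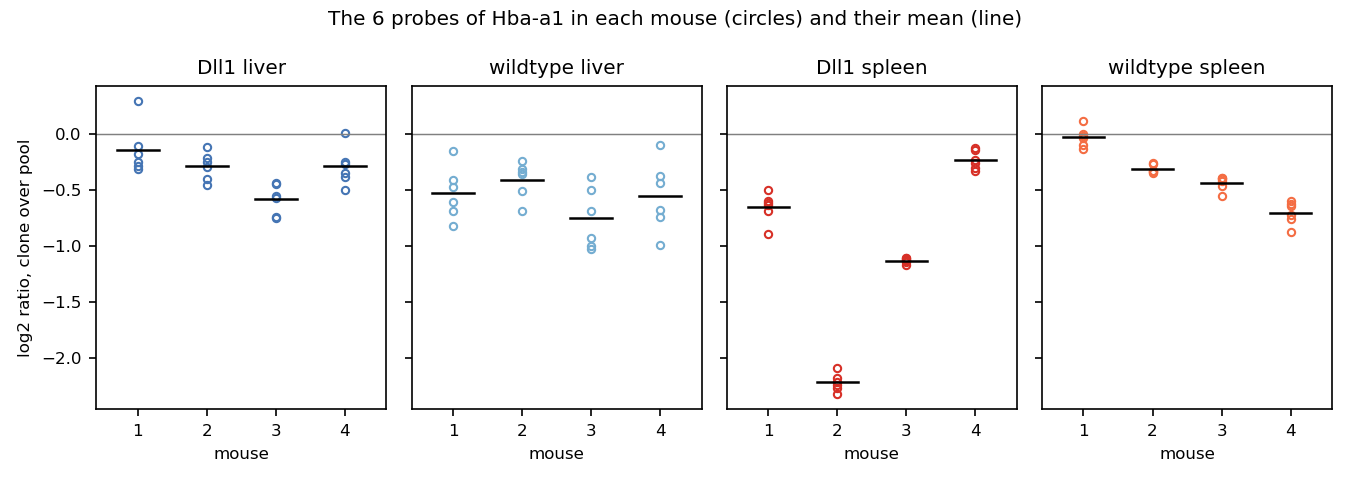
Log2 ratio of clone over pool for the 6 Hba-a1 rows of the array (circles) and their mean (line) in each mouse, 1 panel per group. The 6 rows of a mouse lie close together in spleen, where the mice differ more than the rows do, and farther apart in wildtype liver.

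Hba-x, the alpha-like globin of the embryo, is no member of the set but was the only other gene of the globin list with a named row. Its single row was at -0.48, -2.21, -1.10 and -0.26 in the Dll1 spleens, close to Hba-a1 in each mouse. It was at 0.07, -0.26, -0.21 and -0.65 in the wildtype spleens. In liver the likeness ended: Hba-x lay at -0.09 ± 0.12 (SD, n = 4 mice) in Dll1 clones and at -0.04 ± 0.12 in wildtype clones, without the shift that the Hba-a1 rows had there.

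Alas2, which starts haem synthesis in red cell precursors, was at -0.24, -1.10, -0.82 and -0.10 in the Dll1 spleens, a mean of -0.56 ± 0.48 (SD, n = 4 mice). In the wildtype spleens it was at 0.02, 0.01, -0.14 and -0.45, a mean of -0.14 ± 0.22. Mice 1 and 2 were level with the pool there and mouse 4 was the lowest. In liver, Alas2 was at 0.03 ± 0.21 in Dll1 clones (limma adjusted p = 0.933) and at 0.06 ± 0.05 in wildtype clones (limma adjusted p = 0.582). The highest liver value, 0.34, belonged to mouse 4 of the Dll1 clones.

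Rhd, a blood group protein of the red cell membrane, lay below the pool in every spleen. The Dll1 spleens were at -0.13, -1.49, -1.17 and -0.52, a mean of -0.83 ± 0.61 (SD, n = 4 mice), and the wildtype spleens at -0.64, -0.37, -0.55 and -0.998, a mean of -0.64 ± 0.26. The livers of the wildtype clones went the other way in all 4 mice, at 0.06, 0.14, 0.07 and 0.27, as did 11.7% of features. Their mean of 0.14 ± 0.10 did not pass the test (limma adjusted p = 0.342). In the Dll1 livers Rhd was at 0.14 ± 0.31 (limma adjusted p = 0.804), with mouse 4 at 0.60 and the other mice between -0.10 and 0.04.

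Car2 is the carbonic anhydrase that turns carbon dioxide into bicarbonate in the red cell. It was at -0.23, -1.75, -0.93 and -0.12 in the Dll1 spleens, a mean of -0.76 ± 0.75 (SD, n = 4 mice). In the wildtype spleens it was at -0.88, -0.98, -0.79 and -1.45, a mean of -1.03 ± 0.30. Even the highest wildtype spleen was at 57.9% of its pool, whereas the highest Dll1 spleen, that of mouse 4, was at 91.7%. The means of its 3 rows ran from -0.85 to -0.62 in Dll1 spleen and from -1.17 to -0.76 in wildtype spleen. In liver Car2 was at 0.02 ± 0.08 in Dll1 clones (limma adjusted p = 0.949) and at -0.01 ± 0.05 in wildtype clones (limma adjusted p = 0.947).

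Prdx2, a peroxiredoxin that removes hydrogen peroxide in red cells, was lowest in the same mice as Car2. The Dll1 spleens were at -0.10, -1.81, -1.12 and -0.32, a mean of -0.84 ± 0.78 (SD, n = 4 mice), and the wildtype spleens at -0.67, -1.04, -0.75 and -1.33, a mean of -0.95 ± 0.30. The wildtype values were again all well below the pool, between 39.7% and 63.0% of it. In liver Prdx2 was at 0.10 ± 0.07 in Dll1 clones (limma adjusted p = 0.784) and at -0.08 ± 0.13 in wildtype clones (limma adjusted p = 0.607).

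None of the 4 genes tested in liver passed limma with Benjamini-Hochberg adjustment in either cohort. Among all features 0% of 16915 passed in Dll1 liver, with 966 at an unadjusted p under 0.05, and 0.153% of 16948 passed in wildtype liver. The liver difference of the cohorts, Dll1 minus wildtype, was -0.02 (SE 0.09) for Alas2, 0.01 (SE 0.13) for Rhd, 0.03 (SE 0.06) for Car2 and 0.18 (SE 0.08) for Prdx2. Their limma adjusted p-values ran from 0.934 to 0.996, and all 4 genes overlapped between the cohorts; in that comparison 0% of 16900 features passed, with 823 at an unadjusted p under 0.05, and 3.33% of features did not overlap. In spleen the cohorts overlapped for all 5 genes too, against 3.16% of features that did not. The spleen difference of Dll1 minus wildtype was -0.69 for Hba-a1, -0.42 for Alas2, -0.19 for Rhd, 0.27 for Car2 and 0.11 for Prdx2, given without a test because spleen values chose the genes.

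For 3 of the genes the organs did not overlap. Every spleen lay below every liver of the same cohort for Rhd, Car2 and Prdx2, in Dll1 and in wildtype clones alike, on the ratios as deposited. Such a lack of overlap was found for 8.05% of features in Dll1 clones and 8.63% in wildtype clones, but the spleen values had chosen these genes and the counts support nothing further. Spleen minus liver came to -0.97 for Rhd, -0.77 for Car2 and -0.94 for Prdx2 in Dll1 clones, and to -0.77, -1.02 and -0.87 in wildtype clones. Alas2 was lower in spleen than in liver of the same animal in 4 of 4 mice of each cohort, with group ranges that overlapped. With the Cy3 arrays turned in sign the order reversed without overlap in wildtype clones for Car2, at 0.26 in spleen and -0.22 in liver, and for Prdx2, at 0.19 and -0.16. Alas2 reversed likewise there, at -0.16 and -0.70, and Rhd overlapped between the organs in both cohorts.

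The same animals were low for all 5 genes in spleen. Among the Dll1 clones mouse 2 was the lowest for each gene and mouse 3 the next, and among the wildtype clones mouse 4 was the lowest for each gene. Over the 8 spleens, with each value taken relative to its cohort mean, Pearson's r between pairs of the 5 genes ran from 0.81 for Hba-a1 and Rhd to 0.97 for Car2 and Prdx2. These are descriptions over 8 spleens whose genes share arrays and dyes. Within groups of 4 mice the median r of the 10 pairs was 0.96 in Dll1 spleen and 0.81 in wildtype spleen, and 0.08 in Dll1 liver and 0.37 in wildtype liver. Without mouse 2 the Dll1 spleen mean of Hba-a1 moved from -1.06 to -0.67, that of Car2 from -0.76 to -0.43 and that of Prdx2 from -0.84 to -0.51. With the Cy3 arrays turned in sign, the 10 correlations over 8 spleens ran from 0.19 to 0.81, and mouse 3 was the lowest Dll1 spleen for all 5 genes. The Dll1 spleen arrays also had the most missing values, from 365 to 2859 an array against 248 to 1033 in wildtype spleen and 59 to 230 in liver, and the part of missing values in the spread was not tested.

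On the ratios as deposited, the cohorts did not overlap in the difference between haemoglobin and the soluble enzymes within a spleen. Hba-a1 minus Car2, taken in the same mouse, was -0.42, -0.48, -0.21 and -0.11 in the Dll1 spleens and 0.85, 0.66, 0.35 and 0.75 in the wildtype spleens. Hba-a1 thus lay nearer to its pool than Car2 did in every wildtype spleen, and farther below it in every Dll1 spleen. Hba-a1 minus Prdx2 was -0.56, -0.41, -0.01 and 0.08 in the Dll1 spleens and 0.64, 0.72, 0.31 and 0.63 in the wildtype spleens, again with no overlap. Taken against each of 11878 other features in place of these genes, Hba-a1 did not overlap between the cohorts for 5.87%. The other 2 comparisons overlapped, with Hba-a1 minus Alas2 at -0.50 ± 0.43 (SD, n = 4 mice) and -0.23 ± 0.13, and Hba-a1 minus Rhd at -0.23 ± 0.47 and 0.27 ± 0.25, for Dll1 and wildtype spleen in turn. In all 8 livers Hba-a1 was the lower one in each of the 4 comparisons. Liver values had helped to choose Hba-a1, so this count supports nothing further, and no share over all features is given beside it. With the Cy3 arrays turned in sign these patterns did not hold: Hba-a1 minus Car2 came to -0.005 and -0.02 and Hba-a1 minus Prdx2 to 0.10 and 0.05 in Dll1 and wildtype spleen, with cohorts that overlapped, and Hba-a1 was the higher one in all 4 wildtype livers in each comparison. These differences were looked at after the spleen values were known and carry no test, and each cohort was measured against a pool of its own.

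**Figure D3:**
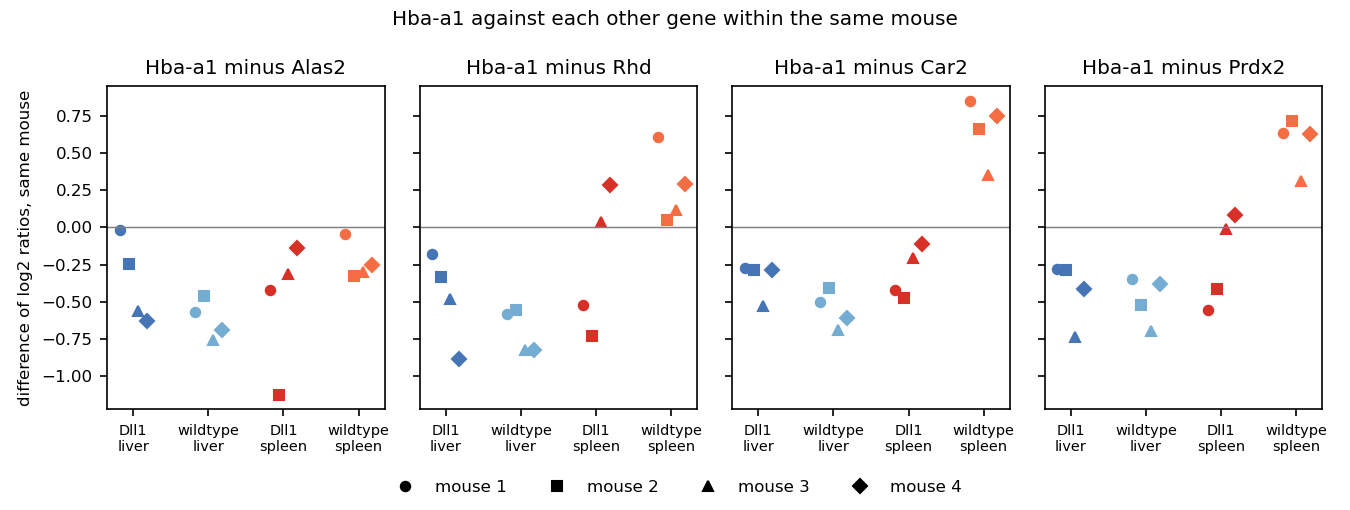
Difference between the log2 ratio of Hba-a1 and that of each other gene within the same mouse (vertical axis), by group; each symbol is 1 mouse. For Car2 and Prdx2 the wildtype spleens lie between 0.31 and 0.85, above all Dll1 spleens, which lie between -0.56 and 0.08, on the ratios as deposited.

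The value depended on the dye carried by the clone, in the same direction everywhere for 2 of the genes. Alas2 and Rhd were lower when the clone was labelled in Cy5 than when it was labelled in Cy3, in 4 of 4 mice of each of the 4 groups. How many of all features had such a dye difference was not counted. For Alas2 in wildtype liver the means were -0.64 in Cy5 and 0.76 in Cy3, so that the mean of 0.06 is a balance of opposite values. For Rhd in Dll1 spleen they were -1.58 and -0.08. The other genes also differed by dye in some groups, each time in the same direction in 4 of 4 mice. That direction was not the same in all of these groups. In wildtype spleen Hba-a1 was at -0.13 in Cy5 and -0.61 in Cy3, Car2 at -0.77 and -1.28 and Prdx2 at -0.75 and -1.14. In wildtype liver Car2 was at -0.23 and 0.21. In Dll1 liver Hba-a1 was at -0.49 and -0.17, Car2 at 0.08 and -0.04 and Prdx2 at 0.17 and 0.04. Hba-a1, Car2 and Prdx2 had spleen means below 0 under both dyes in both cohorts. For Hba-a1, 47 of 48 single array values lay below 0 in Dll1 spleen and 40 of 48 in wildtype spleen. All 24 Car2 values in wildtype spleen and all 8 Prdx2 values in each spleen group were below 0. These single values repeat the rows and dyes of the same 4 mice of a group and are no replicates. They come from the spleens that chose the genes, and no share over all features is given beside them. Over the 4 mice of Dll1 spleen the 2 dyes gave r = 0.97 for Hba-a1, 0.92 for Car2 and 0.94 for Prdx2, and over wildtype spleen 0.88, 0.95 and 0.77, as descriptions over 4 mice each. In wildtype liver the Hba-a1 values of the 2 dyes were both low, at -0.56 and -0.57, but did not rank the mice alike (r = -0.22 over 4 mice). That likeness is a mean over rows that differed by dye in opposite directions. Row 1 was at -0.65 in Cy5 and 0.21 in Cy3, lower in Cy5 in 4 of 4 mice. Row 3, at -0.23 and -0.63, and row 6, at -0.65 and -1.04, were lower in Cy3 in 4 of 4 mice.

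**Figure D4:**
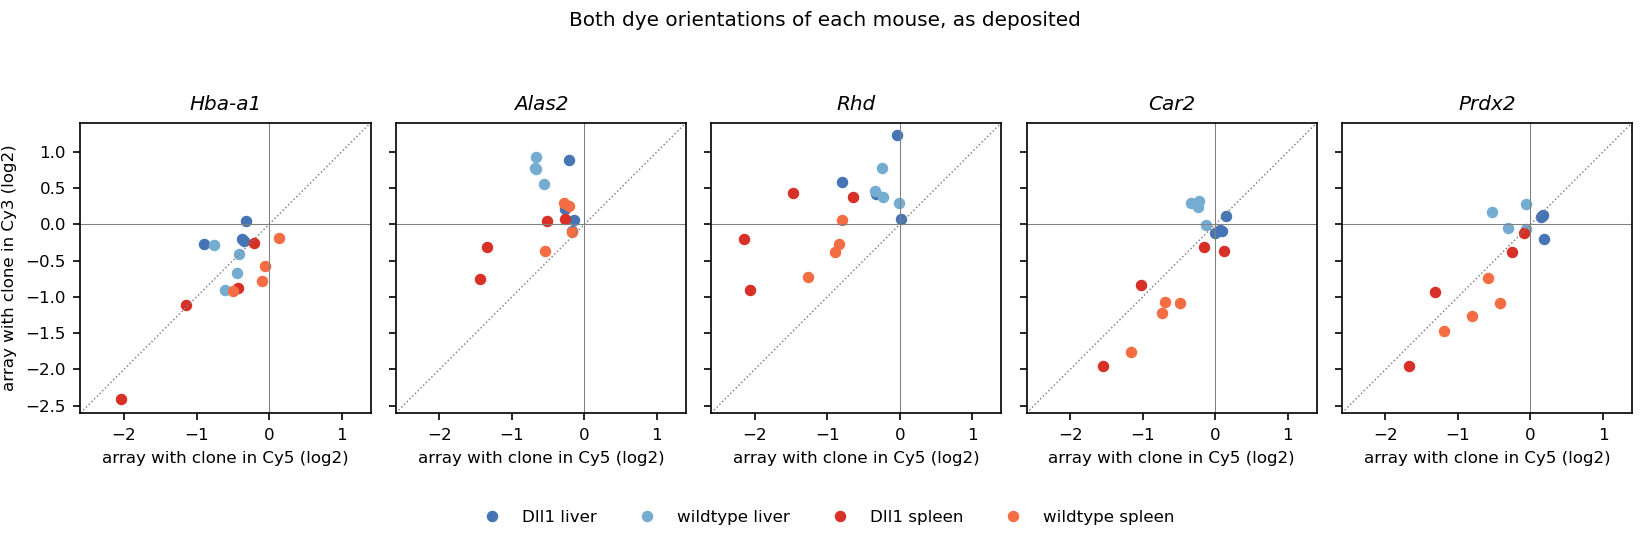
Log2 ratio as deposited on the array with the clone in Cy5 (horizontal axis) and on the array with the clone in Cy3 (vertical axis) of the same mouse, by gene; each point is 1 mouse in 1 organ and the dotted line marks equal values. Alas2 and Rhd lie above the line in every mouse, while the spleen points of Hba-a1, Car2 and Prdx2 run parallel to it.

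Over all features the 2 dye orientations correlated at -0.26 in Dll1 liver, -0.70 in wildtype liver, -0.30 in Dll1 spleen and -0.38 in wildtype spleen, so the sign of the deposited ratios is not settled by the table as a whole. Values with the Cy3 arrays turned in sign are therefore given too. In spleen that reading put Hba-a1 at 0.10 in Dll1 and 0.24 in wildtype clones, Car2 at 0.11 and 0.26, Prdx2 at 0.01 and 0.19, Alas2 at -0.33 and -0.16 and Rhd at -0.75 and -0.31. In Dll1 liver it put Hba-a1 at -0.16, Alas2 at -0.23, Rhd at -0.43, Car2 at 0.06 and Prdx2 at 0.07. In wildtype liver Hba-a1 came to 0.01, while Alas2 at -0.70 (limma adjusted p = 4.64e-05), Rhd at -0.34 (limma adjusted p = 0.00138), Car2 at -0.22 (limma adjusted p = 0.00697) and Prdx2 at -0.16 (limma adjusted p = 0.0405) then passed. So did 9631 of 16948 features in wildtype liver under that reading, and in wildtype liver the call on these 4 genes depends on it. In Dll1 liver none of the 4 passed under either reading.

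Of 6727 other named genes with values in all 8 spleens, those most like Hba-a1 in pattern were Plppr2 (r = 0.999), Gamt (0.998), Ucma (0.997), Nup155 (0.996) and Clptm1 (0.994), each over 8 spleens relative to the cohort means. Car2 came at rank 34, Alas2 at rank 53, Prdx2 at rank 73 and Rhd at rank 287. Plppr2 matched Hba-a1 in size as well, at -0.64, -2.24, -1.11 and -0.27 in the Dll1 spleens. The genes most like Alas2 were Fxyd4 (r = 0.995), H2ac19 (0.990), Tie1 (0.989), Gyg (0.979) and Rpl11 (0.976). Tie1 followed Alas2 in order but not in size, with Dll1 spleens at 0.24, -0.07, 0.04 and 0.37.

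A larger group of array rows had the same values as Hba-a1, by a limit set after seeing the data. Of 13568 rows with a value in all 8 spleens, 33 lay within 0.25 of Hba-a1 in each of the 8. They comprised the 6 Hba-a1 rows, 14 rows named for other genes, Hba-x among them, and 13 rows without a gene name. Liver values did not enter that limit, but they had helped to choose Hba-a1 itself. In liver the 27 rows other than Hba-a1 had a median mean of -0.25 in Dll1 clones and of -0.42 in wildtype clones. All 4 wildtype livers were below 0 for 21 of the 27, against 8.99% of all features, and all 4 Dll1 livers for 19 of the 27, against 9.92%. Features average the rows of a gene, so these shares have another unit than the rows. The rows are no replicates of a condition, and the counts carry no test. Among the named ones Mark3 lay at -0.69, H3f3a at -0.75 and Nup155 at -0.52 in wildtype liver, beside -0.56 for Hba-a1, whereas Plppr2 lay at -0.05. Whether the spots of these rows hold the genes they are named for was not tested.

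The other red cell genes were taken from 7 lists, which have 72 genes on the array besides the 5 described above. The lists also hold genes that are not particular to red cells, such as the housekeeping enzyme gene Alas1. None passed limma with Benjamini-Hochberg adjustment in any group on the ratios as deposited, where 0% of 15875 features passed in Dll1 spleen, with 775 at an unadjusted p under 0.05, and 0% of 16469 in wildtype spleen, with 1013. In wildtype spleen 51 of 71 tested lay below 0, with a median of -0.10 beside 0.01 over all features. At an unadjusted p under 0.05, 14 of the 71 were lower and 4 higher, where 2.96% of all features were lower and 3.19% higher. All 4 mice lay below 0 for 21 of the 70 with 4 values, against 7.03% of features. In Dll1 spleen 47 of 69 lay below 0, with a median of -0.16 beside 0.01, 5 were lower and 1 higher at an unadjusted p under 0.05, where 2.71% and 2.17% of features were, and all 4 mice lay below 0 for 14 of 61, against 7.61% of features. With the Cy3 arrays turned in sign both directions reversed, with 21 of 71 below 0 and a median of 0.12 in wildtype spleen and 22 of 69 below 0 and a median of 0.07 in Dll1 spleen, beside 0.06 and -0.02 over all features. Under that reading 1 of the 71 passed in wildtype spleen and 37 of 71 in wildtype liver.

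In liver the same lists lay around 0, but they do not measure red cell RNA alone. Their median was -0.01 in Dll1 liver, with 42 of 71 below 0, and 0.001 in wildtype liver, with 34 of 71 below 0. In Dll1 liver 1 gene was lower at an unadjusted p under 0.05, where 3.75% of features were, and in wildtype liver 5 were, where 5.95% of features were. None of the 71 was higher at that level in either liver, where 1.96% and 6.09% of features were.

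By role, the soluble enzymes of the red cell had the largest share of genes below the pool in spleen among the lists with more than 1 gene. Of 12 tested, 11 lay below 0 in Dll1 spleen (median -0.35) and 10 in wildtype spleen (median -0.30). The count was not particular to spleen. In Dll1 liver 11 of the 12 lay below 0 as well, by less (median -0.05), and in wildtype liver 7 did (median -0.01). Gpx1, a glutathione peroxidase, was at -0.29, -1.44, -0.83 and -0.06 in the Dll1 spleens and at -0.70, -0.52, -0.53 and -0.78 in the wildtype spleens. In the Dll1 spleens its order of mice was that of Car2. On the other side of 0 were Gpx4 in Dll1 spleen, at 0.07 ± 0.40 (SD, n = 4 mice), and catalase (Cat) in wildtype spleen, at 0.15 ± 0.43, both with mice on either side.

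Membrane and skeleton genes were mixed. Slc4a1, the anion exchanger band 3 that carries bicarbonate across the red cell membrane, was at -0.29, -1.41, -0.80 and 0.05 in the Dll1 spleens and at -0.50, -1.03, -0.46 and -1.07 in the wildtype spleens. Dmtn, an actin-bundling protein of the membrane skeleton, was at -2.01, -0.86, -0.72 and -1.18 in the wildtype spleens, but ran from -1.18 to 1.14 in the Dll1 spleens. Tmod3, a tropomodulin that caps actin filaments, was above the pool in all 4 wildtype spleens, at 1.06, 0.25, 0.18 and 0.30. Slc14a1, the urea transporter of the red cell membrane, was likewise above it, at 0.27, 0.13, 0.13 and 0.10. Of the blood group and transport list 7 of 11 lay below 0 in Dll1 spleen and 9 of 11 in wildtype spleen, and of the skeleton list 6 of 10 and 7 of 10. In Dll1 spleen the skeleton gene with the smallest unadjusted p below 0 was Tspan33, at -0.59 (SE 0.18). Above 0 that gene was Tmod3, at 0.08 (SE 0.32).

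Among the erythroid regulators 14 of 21 lay below 0 in Dll1 spleen and 16 of 21 in wildtype spleen. Klf1, the Krüppel-like factor that drives adult globin genes, was at 0.01, -1.39, -1.51 and 0.05 in the Dll1 spleens. The same 2 mice that were lowest for Hba-a1 were low and the other 2 were level with the pool. In the wildtype spleens Klf1 was below the pool in all 4, at -0.54, -0.42, -1.11 and -0.93. On the other side of 0, Gata2, a GATA factor of early blood precursors, was at 0.19, 0.08, 0.46 and 0.44 in the wildtype spleens. Stat5a, which relays the erythropoietin signal, was at 1.396, 1.33 and -1.33 in the 3 Dll1 spleens with a value.

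Haem synthesis and iron uptake did not lie to one side. In wildtype spleen 4 of 10 haem synthesis genes lay below 0 and in Dll1 spleen 5 of 8. Alad, the second enzyme of the pathway, was at -0.36, -0.38, -0.36 and -0.57 in the wildtype spleens and between -0.22 and -0.02 in the Dll1 spleens. Alas1, the housekeeping form of the first enzyme, was above the pool in all 4 wildtype spleens, at 0.57, 0.06, 0.75 and 0.32, and below it in the 3 Dll1 spleens with a value, at -0.46, -0.90 and -0.38. Of the iron uptake genes 3 of 6 lay below 0 in Dll1 spleen and 4 of 6 in wildtype spleen. Aco1, an enzyme that also binds iron-responsive RNA elements, was at 0.39, 1.10 and 0.91 in the 3 Dll1 spleens with a value. Of the 13 haem clearance genes 9 lay below 0 in wildtype liver, 6 of them at an unadjusted p under 0.05, where 5.95% of features were lower, and 8 lay below 0 in Dll1 liver. Cd163, the macrophage receptor for haemoglobin bound to haptoglobin, was at -0.41, -0.25, -0.24 and -0.28 in the wildtype livers (limma adjusted p = 0.0608).

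**Figure D5:**
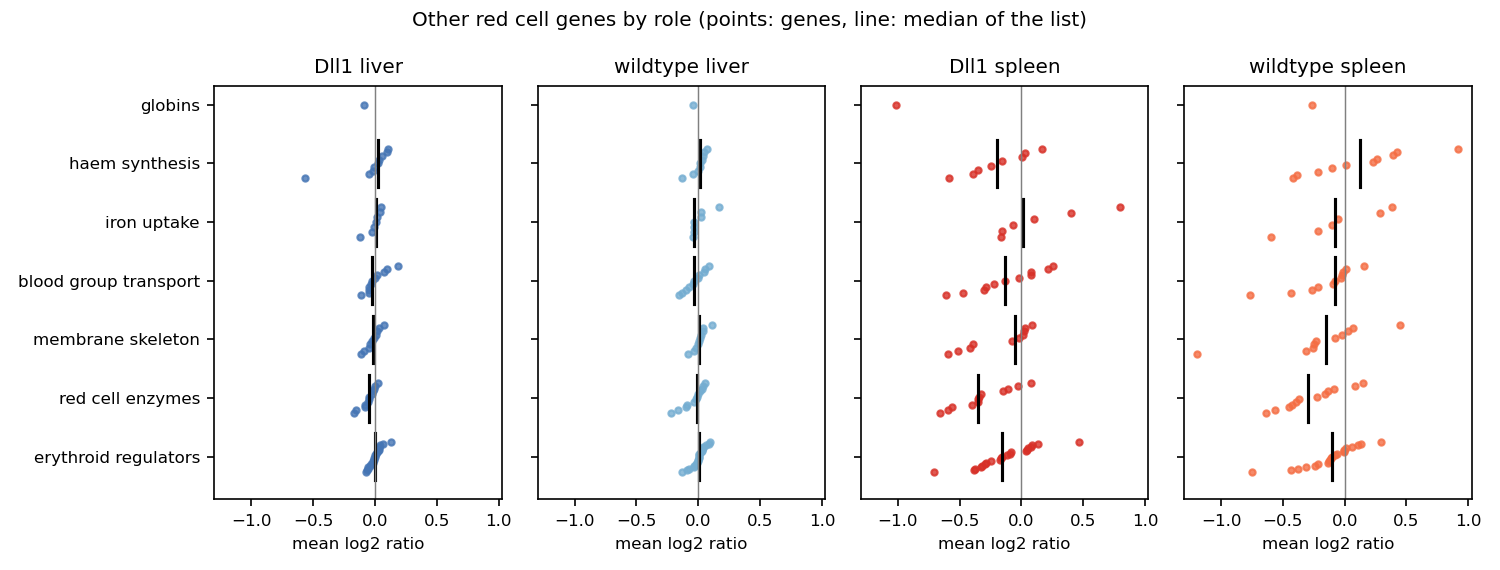
Mean log2 ratio of clone over pool over the mice of a group (horizontal axis) for the other red cell genes, by list (rows) and group (panels); points are genes and black lines list medians. Red cell enzymes have medians of -0.35 in Dll1 spleen and -0.30 in wildtype spleen, and the lists lie close to 0 in liver.

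Markers of other cells moved beside the red cell genes in spleen, and their part in the results was not tested. Proliferation genes lay below 0 for 16 of 19 in Dll1 spleen (median -0.25) and for 17 of 20 in wildtype spleen (median -0.32), where 11 were lower at an unadjusted p under 0.05 beside 2.96% of features. By mouse, their median was 0.03, -0.34, -0.34 and -0.07 in the Dll1 spleens, low in the 2 mice that were lowest for Hba-a1. Neutrophil markers lay below 0 for 8 of 12 in Dll1 spleen, with mouse medians of -0.16, -0.50, -0.42 and -0.04, and for 5 of 12 in wildtype spleen. Markers of B cells, T cells and macrophages had medians above 0 in both spleens, at 0.12, 0.26 and 0.18 in Dll1 clones and at 0.18, 0.09 and 0.08 in wildtype clones. Those of platelets and megakaryocytes had medians of -0.13 and 0.06, and those of pancreatic acinar cells of 0.07 and 0.10. In liver, where Hba-a1 lay below 0, the 12 hepatocyte markers lay below 0 too in both cohorts, with medians of -0.14 in Dll1 and -0.20 in wildtype clones. In wildtype liver 11 of them were lower at an unadjusted p under 0.05, where 5.95% of features were. Fga also passed there over all features (limma adjusted p = 0.0215). In Dll1 liver 4 were lower at that unadjusted level, where 3.75% of features were.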

How the data were processed

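RNA of each clone and of a pool was labelled with Cy5 and Cy3 and hybridised to 2-colour cDNA arrays, per the labels' protocols. The deposited table gives 1 log2 ratio per row and array, with scale inferred from the values; how the authors scanned, normalized and filtered the arrays is not stated in the labels. No counts or intensities were used, so the number of arrays limits the precision. Values of absolute size over 9, which recur as constants, were set to missing. Row n was named by platform probe n minus 11, which named 12760 of 20794 rows. This shift was inferred from values of these data and not taken from a stated map. Every gene name in this report rests on it. Both arrays of a mouse were required and averaged, as were the rows of a gene. Each group was tested against 0 in limma 3.58.1 (R 4.3.3), with at least 3 mice, and Benjamini-Hochberg adjustment over all features; the pool's own spread is left out. The steps were tested on simulated data. Members and lists were chosen with earlier results of these data known. Named list genes are those with the smallest p on each side of 0 per list and group; values of the same genes in other groups, and of rows like Hba-a1, were chosen after seeing the data. Differences involving spleen were planned with a test for the members, which is not printed because spleen values chose them. Deviations of liver and spleen of 1 animal correlated between -0.004 and 0.107. The alternatives tried were the dye reading, constants, centring, scaling, probe choice, missing arrays, a dye term, joint fits, naming, and leaving out each mouse. Where nothing says that clones are independent lines, p-values measure only the spread between these animals.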

Additional observations from a re-analysis of the deposited data

Results flagged for a closer look

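Rhd had opposite signs in the 2 organs of the wildtype clones. Its mean was 0.135 in liver, above the pool in 4 of 4 mice, and -0.639 in spleen, below it in 4 of 4 mice; the difference was not tested because spleen values chose the gene. The liver mean balanced -0.21 with the clone in Cy5 against 0.48 in Cy3, and with the Cy3 arrays turned in sign Rhd lay below 0 in every mouse of both organs, at -0.34 in liver and -0.31 in spleen. Of 24 comparisons of 2 groups examined, it was the only one in which every mouse of one group went one way and every mouse of the other group the opposite way. No share of all features with such opposite signs is given. The organs did not overlap for 8.63% of features in wildtype clones.

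Hba-x in the liver of wildtype mouse 3, at 0.134, stood apart from the other 3 mice, which lay between -0.12 and -0.08. Of 28 groups of 4 mice examined this way 1 stood out, and chance gives about 1 in 20.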

How the results depend on the processing

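With the Cy3 arrays turned in sign, 19 features passed in Dll1 liver, 9631 in wildtype liver (4 of the 4 tested members among them), 254 in wildtype spleen, 7035 in the liver difference and 3736 in the organ difference of wildtype clones. Hba-a1 in wildtype liver turned to 0.00585, and the medians of the red cell lists came to 0.0245 in Dll1 liver, 0.0202 in wildtype liver, 0.0726 in Dll1 spleen and 0.124 in wildtype spleen. The 26 features of wildtype liver became 6 with constants kept, 16 when a single array was enough, 2 after centring and scaling, 43 with 1 probe a gene, 90 with a dye term on single arrays, 0 with all 16 values in 1 fit and 14 with both cohorts of the organ in 1 fit, an alternative chosen after seeing the data. With the dye term 17 passed in wildtype spleen, 1 in the organ difference of Dll1 clones and 100 in that of wildtype clones. With all 16 values in 1 fit, which lets the livers lower the spread assumed for spleen, 1159 passed in Dll1 spleen, 113 in wildtype spleen, 87 in the spleen difference, 14 in the organ difference of Dll1 clones and 0 in that of wildtype clones. The 16 features of the organ difference of wildtype clones became 0 with a single array, 0 with 1 probe a gene and 0 with the mouse as replicate block; the block pairs organs by animal, and left 0 in Dll1 clones. Without the naming shift the list medians were -0.00088 in wildtype liver, -0.017 in Dll1 spleen and -0.0048 in wildtype spleen, while Car2 came to 0.11 and Prdx2 to 0.26 in Dll1 spleen. With the clone in Cy3 only, Alas2 came to 0.02 in wildtype spleen. Leaving out each mouse gave 0 to 66 features in wildtype liver (0 without mouse 1, 66 without mouse 2, 8 without mouse 3, 5 without mouse 4), 0 to 1 in the liver difference, 0 to 4 and 0 to 32 in the organ differences of Dll1 and wildtype clones, and list medians of -0.21 to -0.11 in Dll1 spleen and -0.005 to -0.0005 in wildtype liver. The cause of these changes was not tested beyond what each setting changes by construction.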
